A study of Mus musculus with 6 samples.

Results

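Plac1, Capn6, Spin2c and Asb12 are 4 of the 372 X-linked genes listed in both deposited tables, and they were selected on their TPM, a transcript abundance corrected for gene length and library size, which was much higher at day 7 than at day 0. The cells, embryonic stem cells from a female mouse, belonged to the line 16.7 TST, whose X chromosomes can be told apart as cas and mus. All libraries carried the genotype label WT. The labels do not say what TST stands for or that the replicates came from separate cultures. Day 0 cells were undifferentiated and were kept in LIF on a layer of irradiated MEF feeders, which are mouse embryonic fibroblasts. Day 4 and day 7 cells had been separated from the feeders and differentiated without LIF as embryoid bodies, which were moved to gelatin-coated plates on day 4. Each day had 2 libraries, 6 in all. The question was which allele, cas or mus, carried the expression that was present at day 7.

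In female mouse cells 1 X chromosome is silenced early in differentiation, and Xist, a noncoding RNA, coats the chromosome it is transcribed from and starts the silencing. Genes of the silenced chromosome are then read from the other, active chromosome, except for genes that escape. A gene that is switched on late in differentiation is therefore informative, since most of its transcripts are made after silencing has begun. In the table headers cas stands for the active and mus for the inactive X, and Xist itself was read from mus at 99.8% ± 0.12 (SD, n = 2) at day 7. Over all genes the mus share, the percent of allele-specific reads that came from mus, was 48.1% ± 0.0723 for the median gene of the day 0 libraries, 19.8% ± 0.109 for that of day 4 and 4.35% ± 0.374 for that of day 7 (n = 2 each). Summed over the 372 genes, allele-specific reads per library ranged from 113708 to 124488.5 at day 0 and from 160002.5 to 160218.5 at day 4. At day 7 they ranged from 69742 to 71193.5. Reads per 10000 are given below relative to these sums and not to the whole library. The value of a gene on that scale therefore also depends on the reads of the other genes. Counting intervals below cover counting error only.

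All 4 genes lie on the X chromosome of build GRCm38, and none overlaps another gene of the tables. Plac1, at chrX:53069995-53240111 on the minus strand, encodes a secreted or membrane-bound protein of the placental trophoblast that is needed for normal placental growth. Capn6, at chrX:143802231-143827414 on the minus strand, encodes a calpain that lacks the protease activity of its relatives and binds microtubules. An annotated miRNA gene, Gm47298, lies within its span. Spin2c, at chrX:153832225-153834243 on the plus strand, belongs to the spindlins, proteins with Tudor-like domains that read methylated histone tails. Asb12, at chrX:95470201-95557987 on the minus strand, encodes an ankyrin repeat protein with a SOCS box, the part by which such proteins join ubiquitin ligase complexes. Spin2c has several annotated relatives on the X chromosome, but 0 of the 1260 windows of 50 bases in its transcript occurred in a transcript of another gene. The same held for the 1152 windows of Plac1 and the 1209 of Asb12, whereas 2.08% of the 3512 windows of Capn6 did, each of them in Gm47298, so that a small part of its reads could be assigned either way.

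The promoter windows of the 4 genes are shown because these genes reached their high levels over the same interval, and because Plac1 has a pair of annotated starts far apart. Each window runs from 250 bases before to 50 bases after an annotated RefSeq start in GRCm38.p6 and is written 5′ to 3′ on the strand of the gene. Capitals mark matches to 6 short motifs searched on both strands, namely the TATA box TATAAA, the NF-Y motif CCAAT, the GATA factor motif GATAAG, the TEAD motif CATTCC, the AP-1 motif TGANTCA and the E-box CACGTG. No matches overlapped in these windows. The Plac1 windows are chrX:53240061-53240360 for the upstream start and chrX:53114356-53114655 for the downstream start. The others are chrX:143827363-143827662 for Capn6, chrX:153832043-153832342 for Spin2c and chrX:95478080-95478379 for Asb12. The annotated span of Asb12 begins farther upstream, at 95557987, and no window was taken there.
Plac1 upstream start: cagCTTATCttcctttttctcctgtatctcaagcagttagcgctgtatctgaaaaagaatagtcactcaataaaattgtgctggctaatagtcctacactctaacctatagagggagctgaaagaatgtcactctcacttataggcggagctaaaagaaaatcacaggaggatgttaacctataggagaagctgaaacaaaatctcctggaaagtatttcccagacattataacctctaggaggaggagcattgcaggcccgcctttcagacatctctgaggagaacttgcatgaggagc
Plac1 downstream start: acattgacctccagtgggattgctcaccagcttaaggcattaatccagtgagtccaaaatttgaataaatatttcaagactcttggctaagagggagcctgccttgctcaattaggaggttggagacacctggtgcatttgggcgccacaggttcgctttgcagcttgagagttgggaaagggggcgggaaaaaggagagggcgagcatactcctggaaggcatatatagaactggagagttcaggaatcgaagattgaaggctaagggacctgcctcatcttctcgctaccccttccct
Capn6: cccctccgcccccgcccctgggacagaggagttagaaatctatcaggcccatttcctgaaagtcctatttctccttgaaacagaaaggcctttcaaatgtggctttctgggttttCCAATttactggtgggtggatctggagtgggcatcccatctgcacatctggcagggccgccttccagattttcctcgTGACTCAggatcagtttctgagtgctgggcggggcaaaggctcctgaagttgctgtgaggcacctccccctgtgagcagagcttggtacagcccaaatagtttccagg
Spin2c: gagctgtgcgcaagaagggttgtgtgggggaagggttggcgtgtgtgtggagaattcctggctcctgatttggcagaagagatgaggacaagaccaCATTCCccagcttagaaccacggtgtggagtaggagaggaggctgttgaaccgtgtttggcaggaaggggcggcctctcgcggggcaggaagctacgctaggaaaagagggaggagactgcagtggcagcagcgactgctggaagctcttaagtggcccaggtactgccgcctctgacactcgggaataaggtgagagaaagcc
Asb12: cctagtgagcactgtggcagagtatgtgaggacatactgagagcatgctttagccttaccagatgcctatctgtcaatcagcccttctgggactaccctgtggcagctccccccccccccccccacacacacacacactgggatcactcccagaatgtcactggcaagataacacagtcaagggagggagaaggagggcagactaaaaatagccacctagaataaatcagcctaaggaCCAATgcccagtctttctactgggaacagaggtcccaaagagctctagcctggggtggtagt
No motif was found in the windows of all 4 genes. CCAAT was present in the Capn6 window, 135 bases before the start, and in the Asb12 window, 12 bases before it, and in 37.4% of the 32851 promoter windows of all genes. The Capn6 window also held TGANTCA, which 7.81% of all windows had. The upstream Plac1 window held GATAAG (7.44% of all windows) and the Spin2c window CATTCC (14.7%), while TATAAA (13.6%) and CACGTG (7.15%) were in none of the 5, and the downstream Plac1 window had no match. The Asb12 window held 0 CG dinucleotides, the Plac1 windows 3 and 6, the Capn6 window 5 and the Spin2c window 11, beside a median of 15 over the 411 windows of the tables' genes that were found in RefSeq. A match is a description of these letters and shows no bound factor.

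All 4 genes were low at day 0 and among the more abundant genes of the tables at day 7. These TPM values chose the genes and are given without a test. Plac1 had 0.12 TPM in replicate 1 and 0.528 TPM in replicate 2 of day 0, then 1.54 and 1.18 at day 4, and 79.3 and 87.3 at day 7. Capn6 had 6.07 and 4.76 TPM at day 0, 8.35 and 6.89 at day 4, and 173 and 181 at day 7. Spin2c had 6.26 and 4.84 TPM at day 0, 24.5 and 27.8 at day 4, and 216 and 208 at day 7. For Plac1, Capn6 and Spin2c both day 7 libraries lay far above all earlier ones, and for Spin2c the day 4 libraries also lay above both day 0 libraries. Asb12 had 0.332 and 0.198 TPM at day 0, 0.0872 and 0.0784 at day 4, and 55.6 and 56.4 at day 7, so it was lowest at day 4 and had no earlier value near its day 7 level. By mean TPM the order at day 7 was Spin2c, Capn6, Plac1 and Asb12, at positions 15, 29, 87 and 125 of 372. At day 0 Spin2c and Capn6 stood at positions 332 and 333 and overlapped, as did Plac1 and Asb12 at positions 370 and 371.

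**Figure D1:**
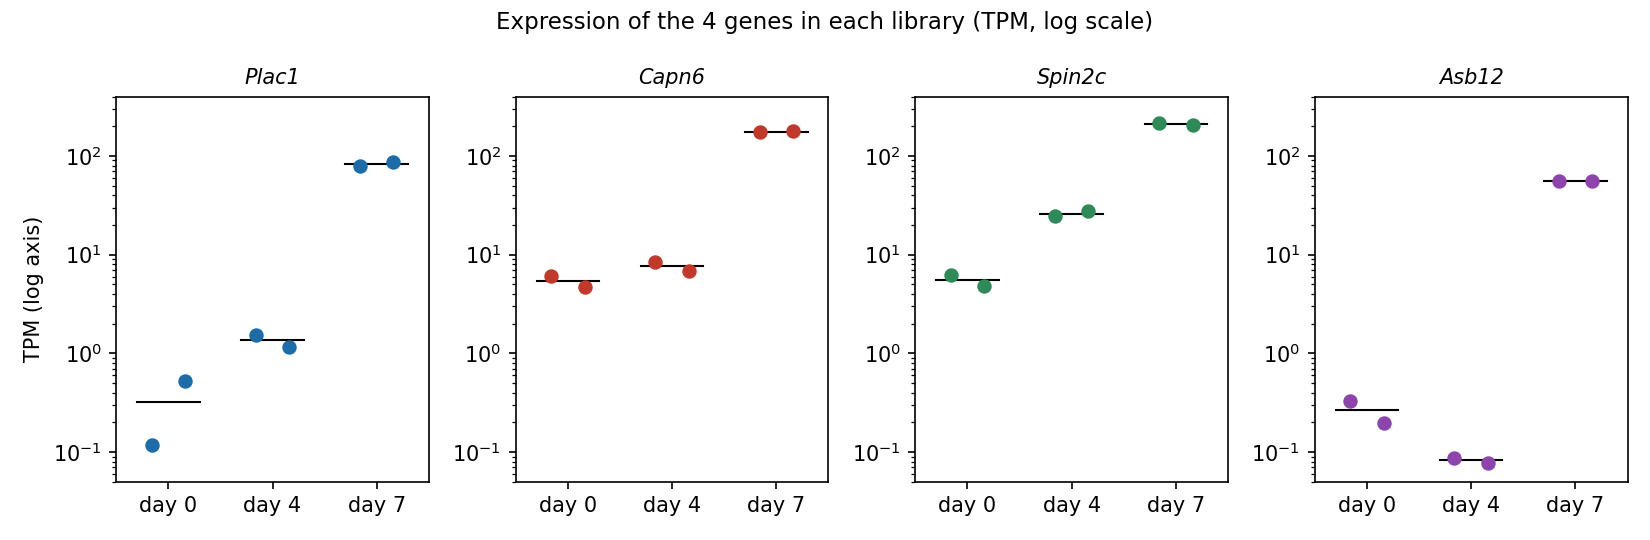
Expression of Plac1, Capn6, Spin2c and Asb12 in TPM on a log axis, with 1 point per library and a line at the mean of the 2 libraries of a day. Spin2c is the gene with an intermediate level at day 4, at 24.5 and 27.8 TPM, while Asb12 stays under 0.4 TPM until day 7.

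The genes differed in when their expression appeared. Of the TPM difference between day 0 and day 7, 9.97% was present by day 4 for Spin2c, 1.28% for Capn6 and 1.25% for Plac1, and Asb12 was lower at day 4 than at day 0. On the log2(TPM + 1) scale, which understates the change of low genes, the day 7 minus day 0 differences were 6.01 for Plac1, 5.50 for Asb12, 5.03 for Spin2c and 4.80 for Capn6. These were the first, the third, the fourth and the fifth largest of the 372 genes, and 17.2% of all genes were higher by at least 1, with a median of -0.37. Col4a6, a basement membrane collagen chain at 5.77, stood between Plac1 and Asb12, and the next genes below Capn6 were Amot at 4.26 and Fndc3c1 at 4.05. As ratios of TPM the day 7 level was 32.7 times that of day 0 for Capn6 and 38.2 times for Spin2c. The ratio for Plac1 lay between 150 and 730 depending on the pair of libraries, and that for Asb12 between 167 and 285, because their day 0 levels were below 1 TPM.

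The spread of the TPM at day 7 has to be read with care. The SDs of day 7 TPM given below are therefore not an independent measure of how replicates vary. Over all genes, replicate 1 minus replicate 2 of log2 TPM at day 7 was an exact linear function of the day 0 and day 4 differences (residual SD 2.9e-15), and its SD of 0.0415 was smaller than the 0.271 of day 0 and the 0.161 of day 4. The allele-specific reads did not share this closeness. Per 10000 allele-specific reads of the 372 genes at day 7, Asb12 had 9.83 and 14.5 reads and Plac1 17.5 and 21.01. Capn6 had 37.6 and 39.8, and Spin2c 37.4 and 31.8. In the cas reads, both day 7 libraries of each of the 4 genes were above every day 0 and day 4 library, beside 61.3% of all genes against day 0 and 41.7% against day 4. The TPM of the same libraries chose the genes, so this order is a description and no separate evidence of the rise. A change of TPM in bulk cells can come from more RNA per cell or from more cells that express the gene, and these cannot be told apart.

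At day 7 nearly all allele-specific reads of the 4 genes came from the cas allele. Plac1 had 121.5 cas and 3 mus reads in replicate 1 and 144.5 cas and 2 mus reads in replicate 2. Capn6 had 258 cas and 10 mus reads, then 260.5 and 17. Spin2c had 256 cas and 10 mus reads, then 212.5 and 9. Each of these 3 genes had a small number of mus reads in both libraries. Asb12 had 70 cas and 0 mus reads in replicate 1, which allows a mus share of up to 4.29%, and 100 cas and 1 mus read in replicate 2.

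**Figure D2:**
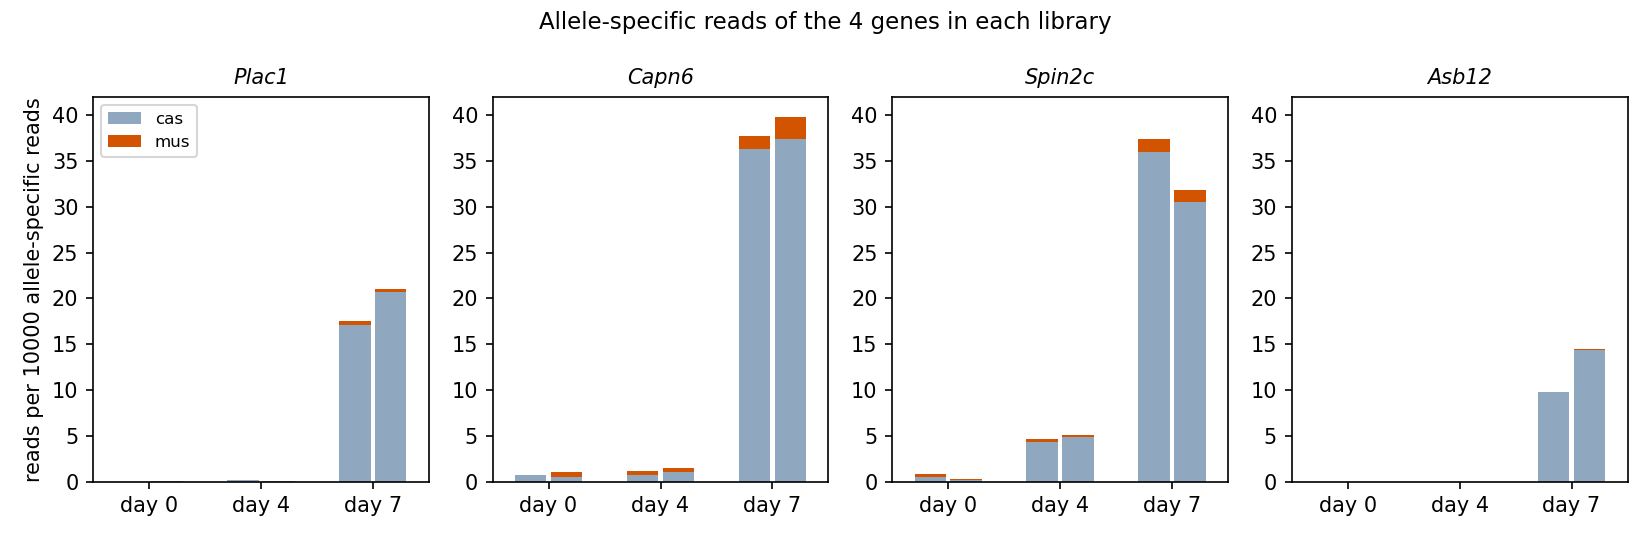
Cas (blue-grey) and mus (orange) reads of the 4 genes, stacked, with 1 bar per library and replicate 1 on the left. Values are per 10000 allele-specific reads of the 372 genes in the library. At day 7 the cas part of Capn6 reaches 36.2 and 37.4 and the mus part 1.4 and 2.44.

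The mus share at day 7 was 4.93% ± 1.69 (SD, n = 2) for Capn6, 3.91% ± 0.215 for Spin2c, 1.89% ± 0.739 for Plac1 and 0.495% ± 0.7 for Asb12. The library values of Capn6 and Spin2c overlapped, those of Spin2c and Plac1 and those of Plac1 and Asb12 did not, but the Wilson 95% intervals of single libraries overlapped between neighbours in this order. They ran from 3.85% to 9.57% for Capn6 replicate 2, from 2.15% to 7.52% for Spin2c replicate 2, from 0.374% to 4.82% for Plac1 replicate 2 and from 0.175% to 5.4% for Asb12 replicate 2. Against an equal share of both alleles, all 4 genes were lower in edgeR's quasi-likelihood test, which was fitted over all 372 genes and both alleles of all libraries. The log2 odds of mus to cas reads were -4.25 ± 0.21 (approximate SE) for Capn6, -4.61 ± 0.24 for Spin2c, -5.69 ± 0.40 for Plac1 and -7.21 ± 0.65 for Asb12. The Benjamini-Hochberg adjusted p-values of that edgeR test were 2.79e-74, 3.30e-73, 3.83e-41 and 7.59e-27, and each gene was lower in both libraries. They rest on a spread shared by all genes that the fit took as known, so their size overstates what 2 libraries per day can show. DESeq2 did not call Asb12 (adjusted p = 0.148). The approximate SEs can be too small where mus reads are few, as for Plac1 and Asb12 with 5 and 1 at day 7. For these 2 genes the SEs were 0.79 and 5.17 in DESeq2 and 0.23 and 0.30 in limma. In the edgeR test 92.2% of all genes were below an equal share at day 7, and 0.538% were above it. A share below it therefore does not set the 4 genes apart.

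Against the median gene of each library, 9.14% of all genes were lower and 19.9% higher in the same edgeR model. Asb12 was lower, by 3.16 ± 1.21 on the log2 odds scale (adjusted p = 0.0338), on 1 mus read among 171. The Plac1 difference of -1.49 ± 0.66 (adjusted p = 0.0749), the Spin2c difference of -0.37 ± 0.36 (0.484) and the Capn6 difference of -0.01 ± 0.32 (0.980) did not pass. Of the 369 genes with a mus share at day 7, 12.5% lay below Asb12, 21.1% below Plac1, 45.3% below Spin2c and 54.2% below Capn6.

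**Figure D3:**
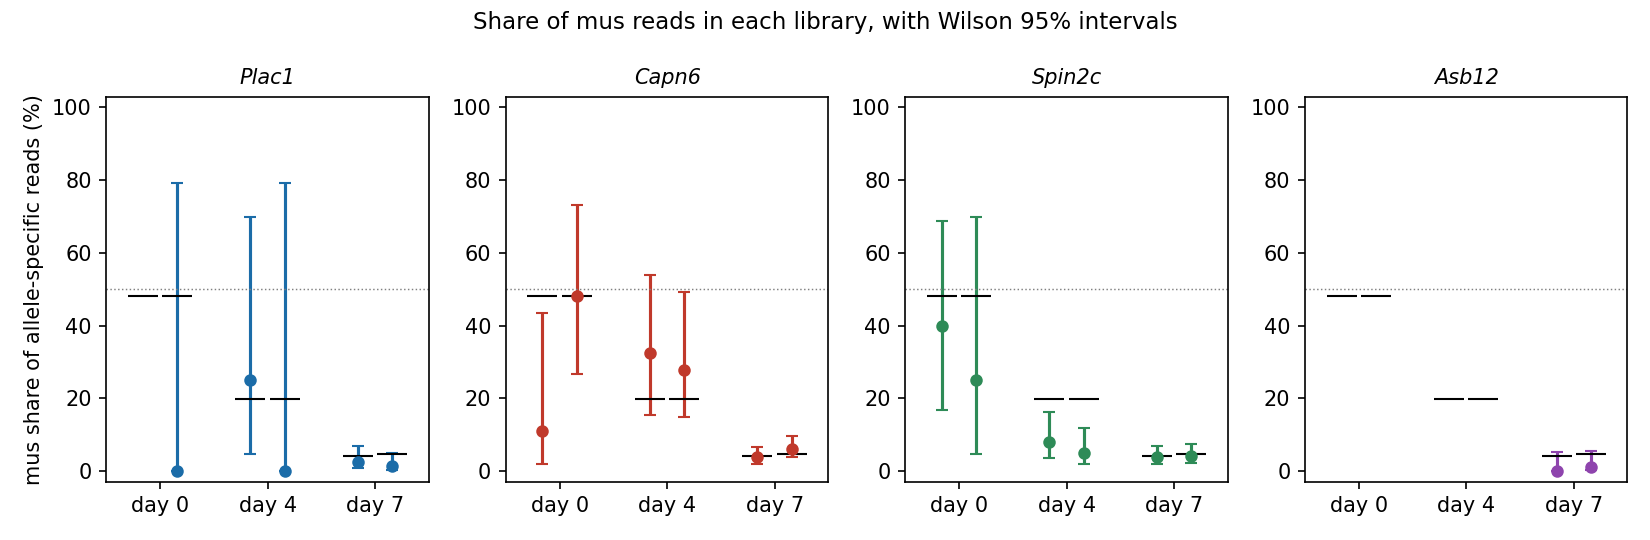
Mus share of the 4 genes in each library with at least 1 allele-specific read, with Wilson 95% intervals, black dashes at the median gene of the library and a dotted line at 50%. At day 4 Spin2c lies below and Capn6 above the median gene, and at day 7 the intervals of all 4 genes include it.

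The share of each allele, multiplied by TPM, gives the expression of each allele on the TPM scale. The cas allele of Capn6 had 5.4 and 2.47 TPM at day 0 and 167 and 169 at day 7, and its mus allele 0.675 and 2.29 TPM at day 0 and 6.46 and 11.1 at day 7. The cas allele of Spin2c had 3.76 and 3.63 TPM at day 0 and 208 and 199 at day 7, and its mus allele 2.51 and 1.21, then 8.12 and 8.44. For both genes the mus allele was also higher in both day 7 libraries than in both day 0 libraries, by far fewer TPM than the cas allele. Among the genes with allele-specific reads in all 4 libraries, 2.23% had such a higher mus TPM. The cas allele held 95.8% of the TPM difference between day 0 and day 7 for Capn6 and 96.9% for Spin2c. For Plac1 and Asb12 only 1 day 0 library had any allele-specific read, with 1 and 0.5 reads. The cas part of their difference was 98.1% and 99.9%. At the mean day 7 levels, it stays between 98.1% and 98.5% for Plac1 whichever allele made the day 0 transcripts. For Asb12 it then stays between 99.5% and 99.97%. These bounds leave out the error of the day 7 shares. Over pairs of libraries the part ran from 97.6% to 98.6% for Plac1 and from 99.4% to 100.4% for Asb12. Since TPM chose the genes, these parts and the higher mus TPM are a description.

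Counted as reads per 10000, the mus reads of Capn6 went from 0.0879 and 0.522 at day 0 to 0.374 and 0.406 at day 4 and 1.4 and 2.44 at day 7. Those of Spin2c were 0.352 and 0.0803, then 0.374 and 0.25, then 1.4 and 1.29. For Plac1 both day 0 libraries had 0 mus reads, day 4 had 0.0624 and 0 per 10000, and day 7 had 0.421 and 0.287. For these 3 genes both day 7 libraries had more mus reads per 10000 than every day 0 and day 4 library, while for Asb12, with 1 mus read in all at day 7, the days overlapped. For Plac1 this rests on 3 and 2 mus reads at day 7 and 1 and 0 at day 4. Few of the 372 genes had such an order. The 4 genes were chosen for a TPM rise over the same days, which favours it, so nothing is read from their number. More mus reads in both day 7 than in both day 0 libraries were found at 9 genes (2.42%), and fewer at 92.7%. Besides Plac1, Capn6 and Spin2c these included Amot, Jpx, Stard8, Suv39h1 and Xist, named after their values were seen. Against day 4 the percent with more mus reads was 5.38%. The cas reads of the same genes were higher by 18.9 per 10000 for Plac1, 36.2 for Capn6 and 32.8 for Spin2c at day 7 than at day 0, beside 0.354, 1.62 and 1.13 for their mus reads.

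**Figure D4:**
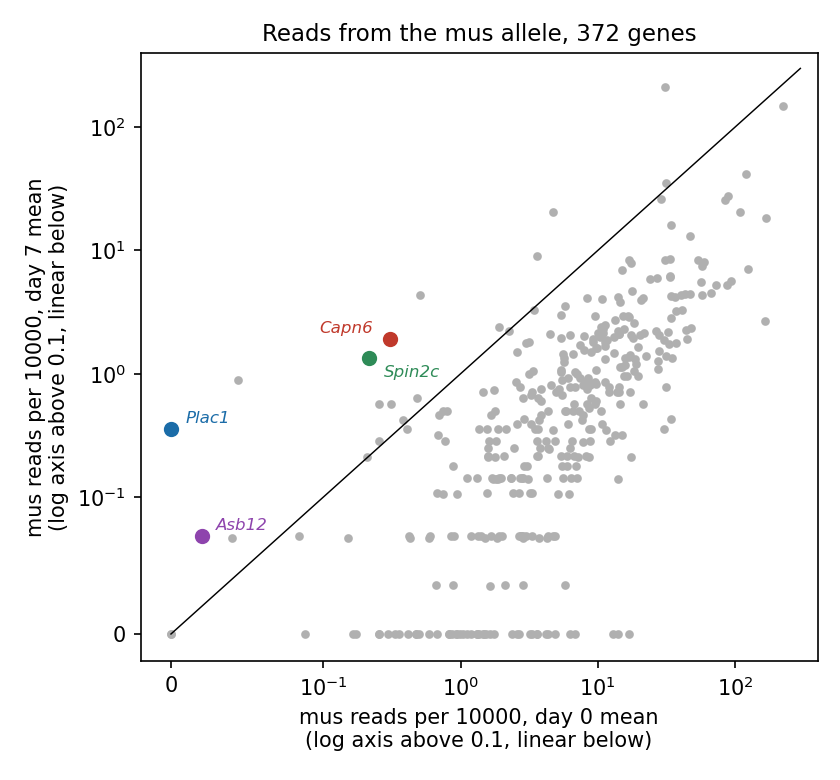
Mus reads per 10000 allele-specific reads at day 0 and day 7 (means of 2 libraries) for the 372 genes, on axes that are logarithmic above 0.1 and linear below it, with a line of equality. Most genes lie below the line, and Plac1, Capn6 and Spin2c lie above it at day 7 values of 0.354, 1.92 and 1.35.

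Before day 7 the allele of origin could be read only for Capn6 and Spin2c. At day 0 Capn6 had 8 cas and 1 mus read in replicate 1 and 7 and 6.5 in replicate 2, and Spin2c had 6 and 4, then 3 and 1. Neither passed the edgeR test against an equal share (adjusted p = 0.256 and 0.533), and at 22.5 and 14 reads over both libraries a moderate skew was not detectable. Across all genes 19.4% were below and 9.68% above an equal share at day 0. The day 0 cells grew on fibroblast feeders, and of 10 X-linked fibroblast markers 7 were measured, none of them at 0. Among them Bgn, a matrix proteoglycan gene picked after its values were seen, was 99.9% ± 0.159 mus at day 0 with 90.8 ± 10.02 TPM and had 1.89 ± 0.460 TPM at day 4, and Col4a5 was 98.3% ± 2.38 mus, with 5.06 ± 0.19 TPM at day 0 and 4.42 ± 0.292 at day 4. Col4a6 and Timp1 were 79.8% ± 6.80 and 72.3% ± 0.135 mus at day 0, whereas Flna, Msn and Fhl1 were near equal, at 54.0% ± 0.470, 53.1% ± 1.07 and 48.6% ± 4.77. The summed TPM of the 7 was 883 to 909 at day 0, 634 to 657 at day 4 and 932 to 941 at day 7, with Flna and Msn the most abundant at day 7 (393 ± 3.44 and 197 ± 2.14 TPM). At day 4 the mus share was 70.7% ± 1.01 for Bgn, on a mean of 8.5 reads, and 44.0% ± 6.11 for Timp1. It was 27.0% ± 4.31 for Fhl1, 19.4% ± 1.42 for Flna, 18.0% ± 0.974 for Msn, 7.70% ± 7.82 for Col4a5 and 0.332% ± 0.470 for Col4a6. The part of fibroblast RNA in the day 0 and day 4 reads of Capn6 and Spin2c was not tested.

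At day 4 Spin2c was already read mainly from cas, whereas Capn6 was still read from both alleles. Spin2c had 69.5 cas and 6 mus reads in replicate 1 and 78 and 4 in replicate 2, a mus share of 6.41% ± 2.17 (SD, n = 2). Capn6 had 12.5 cas and 6 mus reads, then 17 and 6.5, a share of 30.0% ± 3.37. The library values of the genes did not overlap, with the median gene at 19.8% between them. Against an equal share Spin2c was lower, with log2 odds of -3.84 ± 0.36 (adjusted p = 2.56e-25), and Capn6 was lower with -1.25 ± 0.52 (adjusted p = 0.0168, both in edgeR). At day 4, 93.5% of all genes were below an equal share and 0.806% above it. The Capn6 call was lost without day 4 replicate 1 (adjusted p = 0.0896) or replicate 2 (0.280) and in limma (0.155). Relative to the median gene, where 30.4% of genes were lower and 32.0% higher, Spin2c was lower by 1.87 ± 0.43 on the log2 odds scale (adjusted p = 3.89e-05, same edgeR test), and the Capn6 estimate was on the other side at 0.72 ± 0.56 (adjusted p = 0.256). Plac1 had 4 cas reads and 1 mus read over both day 4 libraries, and Asb12 had none, so their day 4 shares cannot be told.

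The mus share of Spin2c fell between day 0 and day 4, from 32.5% ± 10.6 to 6.41% ± 2.17 (n = 2 each), and edgeR put the log2 change of the odds at -3.03 ± 1.11 (adjusted p = 0.00765). Both day 4 libraries were below both day 0 libraries. In this comparison 87.9% of all genes fell and 0.806% rose. The Spin2c call was lost without day 0 replicate 1 (adjusted p = 0.277), which leaves 4 day 0 reads, and relative to the median gene (0.389), where 18.5% of all genes were lower and 22.3% higher. Between day 4 and day 7 its change of -0.77 ± 0.69 did not pass (adjusted p = 0.324 in edgeR), and relative to the median gene the estimate was on the other side at 1.51 ± 0.62 (0.0744). Of its TPM difference, 90.03% appeared in this interval.

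The share of Capn6 went from 29.6% ± 26.2 at day 0 to 30.0% ± 3.37 at day 4, a log2 change of -0.18 ± 0.94 that did not pass (adjusted p = 0.873). That change is undetermined, since it was -1.03 without day 0 replicate 1, 1.61 without day 0 replicate 2, -0.40 without day 4 replicate 1 and 0.09 without day 4 replicate 2. From day 4 the share fell to 4.93% ± 1.69 at day 7, a log2 change that edgeR put at -3.01 ± 0.71 (adjusted p = 5.39e-05). Both day 7 libraries were below both day 4 libraries, and the call stayed with any 1 library left out, the largest adjusted p being 0.0408. Between day 4 and day 7, 68.3% of all genes fell and 1.08% rose, and relative to the median gene the Capn6 change of -0.74 ± 0.64 did not pass (0.528), while 3.23% of all genes were lower and 15.6% higher. For Plac1 the change of -3.997 ± 2.77 did not pass in edgeR (adjusted p = 0.192), while limma (0.0324) and DESeq2 (0.0398) called it. With only 5 day 4 reads to start from, nothing is read from these Plac1 calls. The change from day 0 to day 7 spans the days that chose the genes and was not tested.

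**Figure D5:**
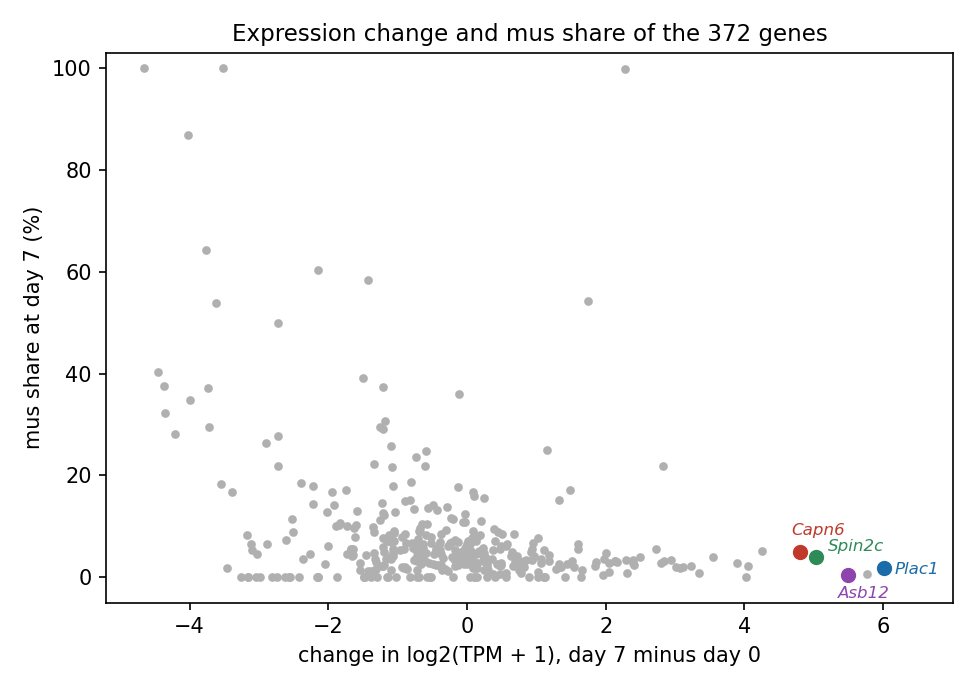
Change in log2(TPM + 1) from day 0 to day 7 and mean mus share at day 7 for the 372 genes, with the 4 genes in colour. Plac1, Asb12, Spin2c and Capn6 lie at the right edge between 4.80 and 6.01 on the x axis, with mus shares from 0.495% to 4.93%.

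The genes nearest to each of the 4 in expression course are given as a description, since the TPM values that selected the 4 genes also set their likeness to one another. Likeness was the distance between log2(TPM + 1) courses over the 6 libraries, each set relative to its own day 0 mean. The closest genes were Asb12 for Plac1 (distance 1.74) and for Capn6 (1.36), and Capn6 for Asb12. Spin2c, with its earlier start, was closest to Col4a6 (1.39) and Arhgap6 (1.45). Col4a6 went from 0.453 ± 0.186 TPM at day 0 to 8.24 ± 0.809 and 78.2 ± 1.19, and Arhgap6 from 0.48 ± 0.124 to 4.41 ± 0.496 and 23.1 ± 0.812. The mus share of Col4a6 at day 7 was 0.561% ± 0.308. Col4a5, the third nearest to Capn6 (2.23) and to Asb12 (3.05), had 5.06 ± 0.19, 4.42 ± 0.292 and 60.5 ± 0.895 TPM and a day 7 mus share of 0.739% ± 0.0386.

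The neighbours of the 4 genes on the chromosome mostly had other courses. Of the 8 nearest table genes, 1 on each side, 1 was higher at day 7 than at day 0 by at least 1 on the log2(TPM + 1) scale and 1 was lower, beside 17.2% and 33.3% of all genes. The higher one was C430049B03Rik, a noncoding RNA gene 12.8 kb from Plac1, with 13.5 ± 0.254 TPM at day 0, 7.65 ± 0.94 at day 4 and 95.4 ± 3.14 at day 7 and a day 7 mus share of 5.50% ± 1.23. On the other side of Plac1, 3.3 kb away, Fam122b had 28.2 ± 0.0593, 25.7 ± 0.496 and 19.4 ± 0.0714 TPM. Pak3, a kinase gene 4.43 kb from Capn6, had 2.18 ± 0.0852, 5.14 ± 0.00553 and 0.93 ± 0.00166 TPM, and Alg13, 490 kb away on the other side, had 167 ± 1.76 TPM at day 0 and 31 ± 0.163 at day 7. Amer1 and Zc4h2, 25.3 kb and 81.2 kb from Asb12, were at 70.8 ± 0.89 and 35.1 ± 0.878 TPM at day 7. Nbdy and Sat1, 90.3 kb and 1379 kb from Spin2c, were at 81.7 ± 2.31 and 76.5 ± 0.368 TPM. Each of Amer1, Zc4h2, Nbdy and Sat1 was within 1 log2 unit of its day 0 level.

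Other genes of the same families or tissues did not share a single course. The tables held 1 of 6 listed X-linked spindlin genes and 1 of 3 ASB genes, which were Spin2c and Asb12. Of 11 trophoblast and placenta genes 7 were measured, and of the 6 besides Plac1, 1 was higher and 3 were lower at day 7 by at least 1 log2 unit, with a median of -1.16. Cited1, a transcriptional coactivator gene, was at 13.8 ± 0.307, 9.14 ± 0.792 and 119 ± 2.41 TPM at day 0, day 4 and day 7, and Gpc3, a cell surface glypican gene, at 210 ± 4.67, 207 ± 0.848 and 337 ± 0.228. Of the 7 trophoblast markers only Plac1 and Esx1 were measured, and Esx1, a homeobox gene of the placenta, was at 26.1 ± 4.23, 7.77 ± 1.28 and 16.3 ± 0.653 TPM. At day 7, 4 of the 6 were below an equal mus share. The share fell at 4 by day 4 and at 2 between day 4 and day 7, beside 92.2%, 87.9% and 68.3% of all genes. Ldoc1, Rhox9 and Rhox6 had a mean of only 3.5, 4 and 9.25 allele-specific reads at day 7, which limits such calls.

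Of 10 muscle genes 8 were measured, and of the 6 besides Capn6 and Asb12, 1 was higher and 3 were lower at day 7, with a median of -0.73. Fhl1, a LIM-domain protein gene of muscle, was at 57.4 ± 2.46 TPM at day 0 and 121 ± 0.369 at day 7, Emd, which encodes the nuclear envelope protein emerin, at 133 ± 3.83 and 152 ± 1.36, and Dmd, the dystrophin gene, at 47.2 ± 1.85 and 6.32 ± 0.032. At day 7, 5 of the 6 were below an equal mus share. The share fell at 6 by day 4 and at 4 between day 4 and day 7. These are about the 92.2%, 87.9% and 68.3% of all genes. Dmd, Mtm1 and Xk had a mean of only 2.5, 3.25 and 7 allele-specific reads at day 7, which limits such calls. Of the 6 skeletal and heart muscle markers Asb12, Dmd and Fhl1 were measured. Pluripotency markers, of which 9 of 13 were measured, summed to 1730 to 1737 TPM at day 0, 580 to 596 at day 4 and 596 to 601 at day 7, and relative to day 0, 5 of the 9 were lower at day 7 by at least 1 log2 unit and 1 was higher, with a median of -3.15. The most abundant at day 7 were Dusp9 and Morc4 (278 ± 3.99 and 127 ± 0.671 TPM), both above their day 4 level, while Nr0b1, Eras, Tex11, Rhox6 and Rhox9 were below theirs. The part of any cell type in the day 7 expression of the 4 genes was not tested.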

How the data were processed

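RNA depleted of ribosomal RNA was sequenced from 6 libraries, 2 per day. The submitters' processing notes name STAR, Trim Galore 0.4.1 and HOMER 4.10, beside edgeR, limma, GRCm38 and mm10, and the sources used here do not give their roles, the use of strand in counting or how the 372 genes were chosen. The authors deposited estimated counts per allele in steps of 0.5 (41.4% not whole), the fraction of each allele, which matched the recomputed share, and TPM. Counts were rounded to whole numbers and fitted for all 372 genes, all with a mean of at least 10 reads per library, in edgeR 4.0.16 (quasi-likelihood; library terms, an allele term per day, no scaling between alleles; common dispersion 0.00101, 3 residual degrees of freedom). The median prior degrees of freedom of the fit were infinite, so the spread was in effect taken as known. The Benjamini-Hochberg method adjusted p-values over all genes, with calls at 0.05. With no label of separate cultures, they measure only how these samples vary, possibly for technical reasons. Approximate standard errors are the log2 estimate over the square root of F, and they can be too small where the reads of an allele are few. Comparing 2 against 2 libraries cannot reach p = 0.05 in an exact test. TPM used a pseudocount of 1 and no test. Zero counts were bounded by 3 counts. Alternatives used limma 3.58.1, DESeq2 1.42.0, other scalings, read minimums and pseudocounts, unrounded counts, a replicate block and each library left out. Named genes were the 4 genes, the 3 nearest courses to each, their ranks' and chromosome's neighbours, listed family genes, the 2 most abundant genes of each other list, and Xist. Genes named from a count outside this rule were picked after their values were seen, and 1 gene is not reported here. The genes, lists and motifs were chosen with earlier results of these data known. R 4.3.3, pandas 2.3.3 and scipy 1.17.1 were used, with GENCODE M21 and RefSeq (GRCm38.p6) for annotation.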

Additional observations from a re-analysis of the deposited data

Results flagged for a closer look

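The mus to cas balance of Spin2c differed between day 0 and day 4 by a test of the difference itself, with a log2 change of the odds of -3.03. That of Capn6 differed between day 4 and day 7, with -3.01. Whether the timing of the change differs between Spin2c and Capn6 was not tested.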

How the results depend on the processing

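With other scalings between alleles most counts moved by construction, since each gene is then set against the others. Against an equal share, centring on the median gene called 232 genes at day 4 and 108 at day 7, and TMM called 147 at day 7. For changes, centring and TMM called 152 and 149 genes by day 4 and 70 and 64 from day 4 to day 7. At day 7 centring ended the calls of Plac1 (-1.49), Spin2c (-0.37) and Capn6 (-0.014), TMM that of Capn6 (-0.54) and DESeq2 that of Asb12 (log2 odds -7.64). The Capn6 estimate at day 4 turned to 0.72 with centring and to 0.69 with TMM, neither past the threshold. The day 0 count of 108 genes was 42 in limma, 41 in DESeq2 and between 45 and 111 without 1 library, 48 without day 0 replicate 1 and 45 without replicate 2. Without 1 library the counts at day 4 and day 7 were 344 to 353 and 328 to 344, and the changes 309 to 337 and 224 to 243. The day 7 log2 odds ran from -6.12 to -5.31 for Plac1, -4.68 to -3.93 for Capn6, -4.67 to -4.55 for Spin2c and -9.95 to -6.55 for Asb12.

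With a pseudocount of 0.1 the log2 TPM differences between day 7 and day 0 were 7.81 for Plac1, 5.01 for Capn6, 5.24 for Spin2c and 7.29 for Asb12, and from reads per 10000 they were 4.28, 4.36, 4.49 and 3.67. Without 1 library they ran from 5.78 to 6.23, 4.65 to 4.95, 4.87 to 5.19 and 5.42 to 5.57. The cas part of the difference was 96.7% for Spin2c from reads per 10000, an alternative chosen after seeing the data. Without 1 library it ran from 97.6% to 98.6% for Plac1, 94.5% to 97.0% for Capn6, 96.6% to 97.2% for Spin2c and 99.4% to 100.4% for Asb12, where a value above 100 means a lower mus level at day 7.

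In the log2 odds of mus to cas, same-numbered replicates did not deviate together, with correlations of -0.163, 0.0222 and -0.0532 between days over 289 genes. These differences hold counting error and leave out effects common to both alleles. In TPM, the day 7 replicate difference was an exact linear function of those of day 0 and day 4. Whether the numbers pair the samples therefore cannot be told. A replicate block gave log2 odds changes of -2.98 for Spin2c by day 4 and -2.99 for Capn6 from day 4 to day 7 and moved no count by 1.5 times. All 372 genes met the read and TPM minimums, so runs without them gave identical values. At day 0 and day 4 the few reads of the 4 genes limit their shares.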

Other observations

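Genes other than the 4 whose log2(TPM + 1) was higher by at least 2 between day 4 and day 7 numbered 13, among them Alas2, Gata1, Cited1 and Efnb1, named after their values were seen. Their median mus share was 15.4% at day 4 and 3.08% at day 7, with a day 7 range from 0 to 5.57%, beside medians of 19.9% and 4.39% for the mean shares of all genes. All 4 genes described above met the same limit. The 27 other genes higher by at least 2 by day 4, which include Xist at 99.8% and share Col4a6 with the first set, had a median mus share of 2.83% at day 7. These sets were formed from the measured levels after the values were seen and were not tested.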
